A study of Mus musculus with 10 samples.

Results

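The genes Grin1, Grin2a and Grin2b encode subunits of the NMDA receptor, and 70 of the 50898 regions in the deposited H3K27ac table belonged to them. They were chosen by position, as every region overlapping a fixed window of the mouse genome build mm9 around each gene. The windows were chr2 25140 to 25180 kb for Grin1 (gene ID 14810), chr16 9565 to 10005 kb for Grin2a (14811) and chr6 135655 to 136130 kb for Grin2b (14812). They held 4, 30 and 36 regions, and all 70 lay wholly inside. The authors' class was prom (read here as promoter) for 3 regions of Grin1, 1 of Grin2a and 3 of Grin2b, and enh (enhancer) for 1, 29 and 33. Regions of the remaining class, uaProm, were not among them. H3K27ac, the acetylation of histone H3 at lysine 27, marks active promoters and enhancers. Cortical tissue of 10 C57BL/6J mice aged 8 weeks was profiled for it by ChIP-seq. Of these, 5 were heterozygous for a Dnmt3a knockout (Het) and 5 were wild type (WT). Dnmt3a encodes an enzyme that sets new DNA methylation. The animals were 5 littermate pairs of 1 Het and 1 WT of the same sex, with replicates 1, 3 and 5 male and replicates 2 and 4 female. Animal numbers tie replicates 1 to 4 to a litter, and replicate 5 is the remaining pair. No Cre driver or cell type restriction is named in the genotype labels. For Het replicate 5 a second label carries a term for a conditional knockout, while its genotype label says heterozygous, and values without this library are given where it matters.

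NMDA receptors are glutamate-gated cation channels that open when glutamate is bound and depolarisation has lifted a magnesium block, and they admit calcium. Each receptor combines obligatory GluN1 subunits, encoded by Grin1, with GluN2 subunits. In the cortex these are mainly GluN2B, encoded by Grin2b and prominent early in life, and GluN2A, encoded by Grin2a, whose share grows during postnatal development. GluN1 binds the co-agonist glycine or D-serine and GluN2 binds glutamate, and the GluN2 type sets the kinetics of the channel.

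All 3 genes are transcribed from high to low coordinates. The promoter region with the highest coordinates in each window is therefore called the start promoter below. An annotation of mm9 was not used here, so regions are described by distance from the upper edge of that start promoter and not as exonic or intronic. In RefSeq's GRCm38 gene table the genes measure 28.0, 428 and 460 kb, and the regions of each window spread over 35.0, 409 and 461 kb. The regions of Grin1 thus reach beyond its gene length at the far end. RefSeq places Anapc2, Ssna1 and Tmem210 close beyond that end, and Lrrc26 and the antisense Grin1os over Grin1. Close beyond the start it places Man1b1 and the lncRNA gene AA543186 for Grin1, and the lncRNA gene Gm30668 for Grin2a. How near the start promoters come to these was not checked. RefSeq also places the lncRNA genes Gm14329, Gm14330 and Gm26653 over Grin2b and the pseudogene Gm19143 over Grin2a, and acetylation there cannot be told apart from that of the host gene.

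Among the 3 members, the RefSeq promoter table matched 1, Grin1. Its 250 bases upstream of the gene start (GRCm38.p6, chr2:25319188-25319437, minus strand, written 5′ to 3′ towards the start) are shown because CpG pairs are a main target of DNA methylation by Dnmt3a, which in neurons also methylates other cytosines. Capitals mark the CpG pairs.
Grin1: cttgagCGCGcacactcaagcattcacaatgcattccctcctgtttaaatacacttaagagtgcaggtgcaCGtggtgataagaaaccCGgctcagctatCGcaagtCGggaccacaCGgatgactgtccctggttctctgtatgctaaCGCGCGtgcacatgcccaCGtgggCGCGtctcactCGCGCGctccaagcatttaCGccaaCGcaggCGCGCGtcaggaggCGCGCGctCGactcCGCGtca
The stretch held 27 CpG pairs, 19 of them in the 100 bases next to the start. The median over 32851 mouse promoter stretches of the same length was 6, and 8.56% of them held as many as Grin1. Its GC content was 58.8%, beside a median of 52.4%. The palindromic E-box core CACGTG occurred 2 times, and 6.02% of the promoter stretches held it on either strand. The GC box GGGCGG and the cyclic AMP response element TGACGTCA were not in this stretch on either strand, and 32.7% and 1.55% of promoter stretches held them. These letters are a description of the sequence; DNA methylation was not measured in the data used here.

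The values are pseudo-counts, that is, read numbers adjusted by the authors to 1 common library size. Reads in regions, recovered from them, numbered 2771534 in the shallowest library, WT replicate 5, and 8453140 in the deepest, Het replicate 2. Single regions of the 3 genes held between 4 and 2988 reads in a library, with medians of 113.5 for Grin1, 134 for Grin2a and 53 for Grin2b. The strongest 5% of all regions took 28.2% of the signal in Het replicate 1 and 33.6% in WT replicate 4, with the other libraries between. Labels name each animal, so the replicates are separate mice. Cortex is a mixture of cell types: fewer cells of a type and less acetylation per cell cannot be told apart, and cell type markers and the Dnmt3a gene were not analysed here.

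Both long genes were acetylated over most of their window, with a strong start promoter and a chain of enhancer regions behind it. The Grin1 window instead held mainly promoter-class signal, 40.0% of its sum in the start promoter and 54.0% in 2 other promoter-class regions. The farther of these reaches beyond the length of Grin1, where neighbouring genes lie, so its signal cannot be assigned to Grin1 alone. Regions covered 64.9% of the Grin2a window and 63.8% of the Grin2b window, beside 7.83% of chromosome 16 and 7.91% of chromosome 6. When chromosomes were tiled into stretches of the same length, 5 of 5810 stretches were covered as much as Grin2a and 6 of 5383 as much as Grin2b, and the median stretch was covered to 3.74% and 3.87%. The Grin1 window was covered to 45.5%, and 4.36% of 64032 stretches of its length were covered as much. Region density was 10.0, 6.82 and 7.58 per 100 kb for Grin1, Grin2a and Grin2b, against 2.29, 1.92 and 1.95 on their chromosomes.

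**Figure D1:**
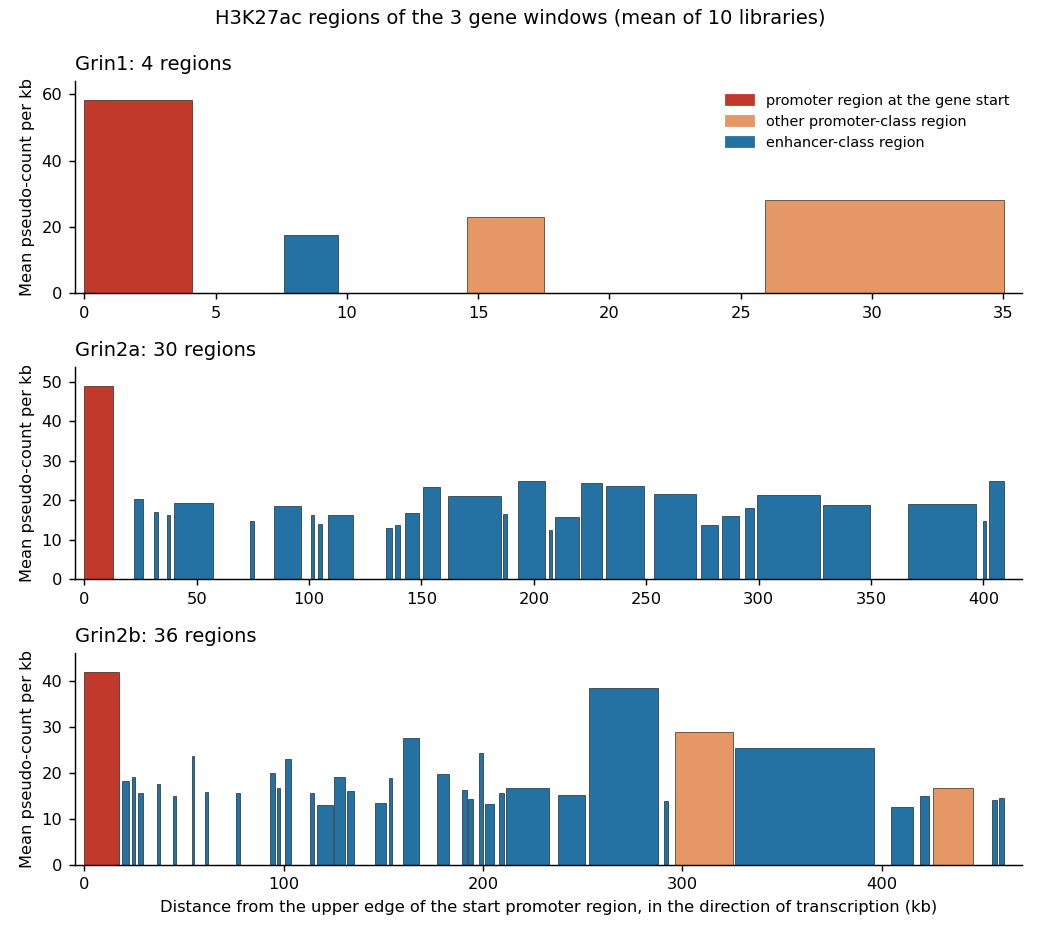
Position and height of the 70 regions. The x axis is the distance in kb from the upper edge of the start promoter in the direction of transcription, the y axis is the mean pseudo-count per kb of region over 10 libraries, and each bar is as wide as its region. The start promoters are the tallest bars, at 58.2, 48.8 and 41.9 per kb, and wide enhancer regions follow in Grin2a and Grin2b.

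The start promoters were the densest region of each gene. For Grin1, the obligatory subunit, chr2:25172127-25176247 had a mean of 58.2 pseudo-counts per kb over 10 libraries, at percentile 90.2 of all promoter regions. For Grin2a, chr16:9984312-9996888 had 48.8 per kb (percentile 81.4), and for Grin2b, chr6:136107931-136125254 had 41.9 per kb (percentile 71.0). The median of all 16529 promoter regions was 31.2 per kb and that of all 32614 enhancer regions 17.8 per kb. The Grin2a and Grin2b start promoters were also broad, at 12.6 and 17.3 kb, against 4.12 kb for Grin1 and a median of 3.06 kb for promoter regions.

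The enhancer regions held 5.97% of the summed signal of Grin1, 89.8% of that of Grin2a and 73.6% of that of Grin2b. A larger share of Grin2a's 29 enhancer regions was wide than among all enhancer regions, though widths ran from 1.25 to 30.1 kb. Their mean signal ran from 19.2 to 598 pseudo-counts. Their density ran from 12.5 to 24.9 per kb, and 12 of them (41.4%) were at least 8 kb wide, against 7.44% of all enhancer regions. These 12 held 71.5% of the gene's signal, and no single enhancer held more than 9.97%. In Grin2b, by contrast, 6 of 33 enhancer regions (18.2%) reached 8 kb, and the median width was 2.51 kb, against 7.40 kb in Grin2a and 2.38 kb over all enhancer regions. Its signal was concentrated in a pair of neighbouring broad regions, which held 43.0% of the gene's total.

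The wider of the pair, chr6:135729234-135798968, spanned 69.7 kb with a mean of 1769 pseudo-counts, which was rank 6 among all enhancer regions by signal and rank 5 by width. The other, chr6:135837564-135872205, spanned 34.6 kb with a mean of 1327, and at 38.3 per kb it stood at percentile 99.3 of enhancer density. Between them lay a promoter-class region of 29.3 kb, chr6:135799663-135829001, with a mean of 847. This block began 253 kb and ended 396 kb from the upper edge of the start promoter. Grin2b's remaining promoter-class region, chr6:135679351-135699466, lay 426 to 446 kb away and had a mean of 333. In Grin1 the other promoter-class regions were chr2:25158741-25161677 with a mean of 67.5 and chr2:25141216-25150323 with a mean of 256, the latter 25.9 to 35.0 kb from the upper edge of the start promoter.

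The first comparison asked whether H3K27ac at these genes differs between Het and WT littermates, and no region of the 3 genes passed the test. The ranges of the genotypes overlapped at the start promoters of all 3 genes. At the Grin1 start promoter the values of WT replicates 1 to 5 were 212, 206, 242, 315 and 236, and those of Het replicates 1 to 5 were 183, 250, 306, 285 and 163. Het replicate 5 was the lowest of the 10 libraries and WT replicate 4 the highest. The groups overlapped, as Het replicate 3 at 306 lay above WT replicates 1, 2, 3 and 5. The means were 242 ± 43.6 in WT and 237 ± 62.5 in Het (SD of 5 animals each).

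At the Grin2a start promoter, WT libraries read 507, 590, 635, 869 and 519, and Het libraries 481, 670, 698, 712 and 460 (460.5 before rounding). The means were 624 ± 147 and 604 ± 123 (SD of 5 animals each). At the Grin2b start promoter, WT libraries read 676, 729.0, 725, 933 and 612.5, and Het libraries 605, 799, 867, 791 and 520.0. The means were 735 ± 120 and 716 ± 147 (SD of 5 animals each). In all 3 genes WT replicate 4 was the highest library and Het replicate 5 the lowest. Het exceeded its WT littermate in replicates 2 and 3 and fell below it in replicates 1, 4 and 5, in each of the 3 genes.

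**Figure D2:**
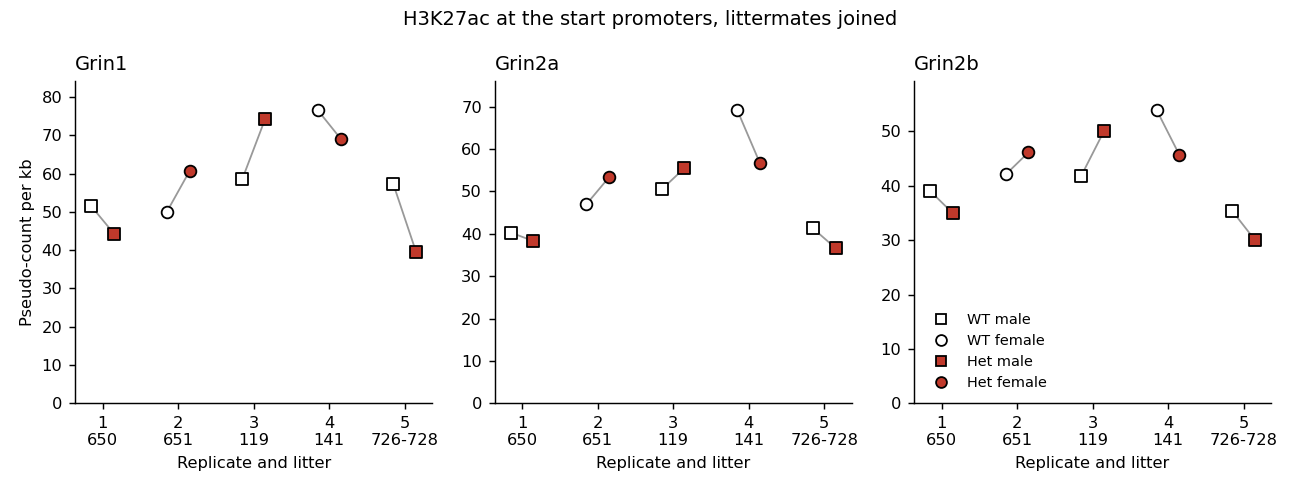
Pseudo-counts per kb (y axis) at the start promoters of Grin1, Grin2a and Grin2b for each replicate and litter (x axis). White is WT and red is Het, squares are males and circles are females, and a line joins littermates. Lines rise in replicates 2 and 3 and fall in replicates 1, 4 and 5 in each gene. The signal share of the strongest 5% of all regions moved in the same directions.

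The log2 fold changes of Het against WT were small beside their errors. They were -0.05 (95% interval -0.33 to 0.22) for the Grin1 start promoter, -0.04 (-0.27 to 0.18) for Grin2a and -0.05 (-0.26 to 0.17) for Grin2b, and limma's adjusted p was 0.9999 for each. Fold changes here are on the log2(value + 1) scale. Without Het replicate 5 and its littermate the same values were 0.06, -0.010 and -0.0022. With only Het replicate 5 left out and its littermate kept they were 0.05, 0.02 and 0.04, and none passed the test either way. Without Het replicate 3 the Grin1, Grin2a and Grin2b values were -0.19, -0.15 and -0.16, and none passed the test.

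Over the 70 regions, 0 passed limma's threshold at an adjusted p of 0.05, where 1 of 50898 regions in the whole table did (0.00196%). At an unadjusted p under 0.05 there were 2 of 70 (2.86%), beside 2.1% of all regions, a share near the background. Both were lower in Het, as were 0.648% of all regions. With limma-voom on the recovered reads the counts were 0 adjusted, beside 0.00196% of all regions, and 1 unadjusted (1.43%), beside 2.21%. The median log2 fold change was -0.0083 over the 70 regions and 0.0092 over all regions. By gene it was 0.045 for Grin1, -0.015 for Grin2a and 0.0021 for Grin2b. The 95% interval lay inside a 1.5-fold change in either direction for 54 of the 70 regions, with 4 of 4 in Grin1, 24 of 30 in Grin2a and 26 of 36 in Grin2b. That bound was met by 40504 of all 50898 regions. The authors' deposited table gives an FDR of 1 for each of the 70 regions and a p-value under 0.05 for 1 of them, Grin2a chr16:9595570-9596960 (p = 0.0448).

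**Figure D3:**
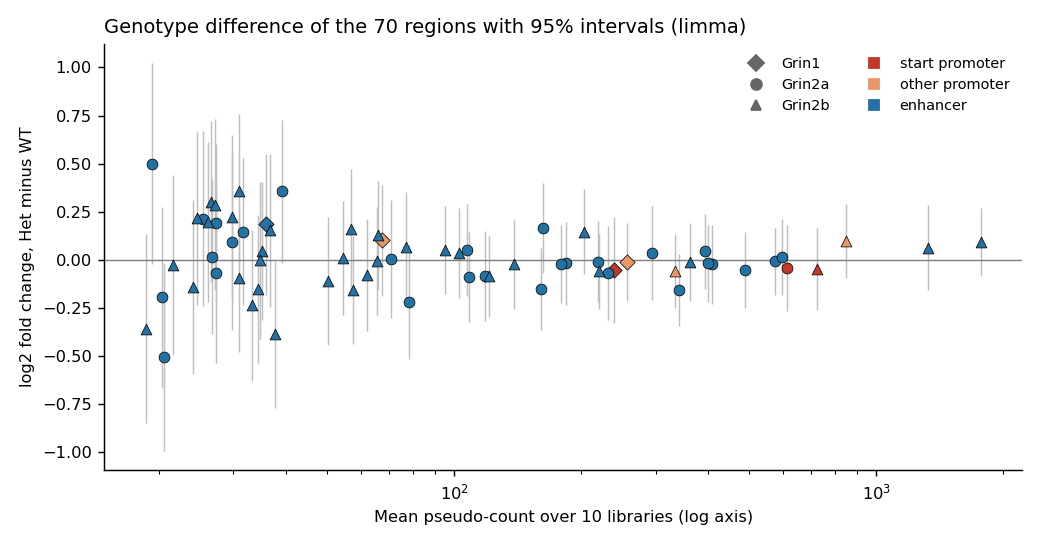
Genotype difference of the 70 regions. The x axis is the mean pseudo-count over 10 libraries on a log axis, the y axis is the log2 fold change of Het minus WT, and grey bars are 95% intervals from limma. Shapes are genes and colours are region classes. Regions above 100 pseudo-counts lie close to 0, and the extremes of -0.51 and 0.50 are enhancers of about 20 pseudo-counts.

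Both regions with an unadjusted p under 0.05 were weak enhancers that were lower in Het. Grin2a chr16:9595570-9596960 read 34.6, 19.3, 24.7, 19.7 and 22.8 in WT replicates 1 to 5. In Het it read 23.6, 15.7, 10.2, 15.6 and 19.7. Each Het value was below its littermate's, and the groups overlapped. Its log2 fold change was -0.51 with a standard error of 0.24 (limma, adjusted p = 0.9999). The reads behind it ranged from 7 to 43 per library. Grin2b chr6:135933292-135935601 read 28.9, 60.4, 39.8, 45.8 and 39.5 in WT and 39.3, 41.5, 21.3, 29.99 and 30.2 in Het. Het was below WT in 4 of 5 litters, and replicate 1 went the other way. Its log2 fold change was -0.39 with a standard error of 0.19 (limma, adjusted p = 0.9999).

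The next of the lower group was a broad Grin2a enhancer nearer to the start promoter, chr16:9939409-9957133. It read 336, 412, 328, 346 and 375 in WT and 307, 334, 323, 307 and 333 in Het. All 5 Het values were below their littermates' and the ranges overlapped only slightly. The log2 fold change was -0.16 with a standard error of 0.09 (limma, adjusted p = 0.9999).

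On the higher side, the 3 smallest p-values also belonged to weak enhancers. Grin2a chr16:9788644-9790179 read 21.7, 18.0, 10.9, 17.7 and 10.1 in WT and 24.6, 21.8, 21.6, 33.8 and 12.1 in Het, higher in 5 of 5 litters. The estimate on the log2 scale was 0.50 with a standard error of 0.26 (limma, adjusted p = 0.9999). The fewest reads behind it were 4, in WT replicate 5. Grin2a chr16:9859793-9862830 averaged 34.5 ± 7.92 in WT and 43.8 ± 6.60 in Het (SD of 5 animals each), higher in 4 of 5 litters. Grin2b chr6:136099575-136101200 averaged 26.9 ± 4.48 and 35.0 ± 7.70 (SD of 5 animals each), also higher in 4 of 5. With these, no enhancer of the 3 genes showed a genotype difference past the threshold.

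Taking the litter as a block raised the unadjusted count to 6 of 70 (8.57%), 3 higher and 3 lower, beside 4.63% of all regions, and these were the 6 regions just described. At an adjusted p of 0.05 the blocked limma fit still called 0 of the 70, and 0.00589% of all regions. Counted by litter alone, 2 of the 70 regions were higher in Het in 5 of 5 litters and 3 were lower in all 5. The shares of all regions were 3.53% and 2.46%. In none of the 70 did the Het values lie entirely above or entirely below the WT values, which held for 0.226% and 0.149% of all regions.

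The broad regions that hold most of the signal were also close between genotypes. The widest Grin2b enhancer, chr6:135729234-135798968, read 1698, 1825, 1631, 2070 and 1339 in WT and 1553, 1983, 1871, 2208 and 1511 in Het. Het was higher in 4 of 5 litters, with overlapping ranges. The log2 fold change came to 0.09 (95% interval -0.09 to 0.27; limma, adjusted p = 0.9999). The next strongest, chr6:135837564-135872205, read 1289, 1483, 1159, 1551 and 969 in WT and 1043, 1471, 1636, 1708 and 959 in Het. Here Het was higher in 2 of 5 litters, and the log2 fold change was 0.06 (-0.16 to 0.28; limma, adjusted p = 0.9999). The promoter-class region between them read 777, 921, 791, 922 and 664 in WT and 755, 928, 989, 1045 and 673 in Het (0.10, -0.09 to 0.29; limma, adjusted p = 0.9999).

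In Grin2a the 3 strongest enhancers were chr16:9600188-9630262, chr16:9669386-9697638 and chr16:9811676-9834862. Their means were 576 ± 21.9 in WT and 573 ± 45.6 in Het, 597 ± 97.6 and 599 ± 65.8, and 499 ± 73.2 and 479 ± 48.2 (SD of 5 animals each). The first ranged only from 511 to 636 over all 10 libraries, 1.25-fold between lowest and highest. The start promoter of the same gene ranged 1.89-fold. The strongest Grin2b enhancer after these, chr6:135892171-135913787, averaged 363 ± 50.1 in WT and 360 ± 43.9 in Het (SD of 5 animals each).

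The remaining promoter-class regions of the 3 genes did not pass the test either. Grin1 chr2:25141216-25150323, at the far end of the window and reaching beyond the gene's length, averaged 257 ± 26.6 in WT and 255 ± 28.2 in Het. Grin1 chr2:25158741-25161677 averaged 65.4 ± 14.8 and 69.5 ± 10.1. Grin2b chr6:135679351-135699466 averaged 339 ± 16.7 and 327 ± 36.6 (SD of 5 animals each). The single Grin1 enhancer, chr2:25166578-25168628, averaged 33.5 ± 5.90 in WT and 38.01 ± 5.49 in Het and was higher in Het in 4 of 5 litters (log2 fold change 0.18, limma, adjusted p = 0.9999).

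Summed over all regions of a gene's window, the signal showed no genotype difference beyond the spread over litters. The Grin1 sum includes the far region that reaches beyond the gene's length. For Grin1 the sums averaged 598 ± 75.5 in WT and 600 ± 86.4 in Het, for Grin2a 6049 ± 710 and 5947 ± 556, and for Grin2b 7091 ± 858 and 7321 ± 981 (SD of 5 animals each). The mean log2 ratio within litters was 0.0010 (SE 0.11) for Grin1, -0.02 (SE 0.04) for Grin2a and 0.04 (SE 0.05) for Grin2b. Het exceeded WT in 2, 1 and 4 of 5 litters. No p is given for these sums. Without Het replicate 5 and its littermate the means were 0.04, -0.03 and 0.05. With only Het replicate 5 left out, the differences of the group means were 0.04, 0.04 and 0.12.

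**Figure D4:**
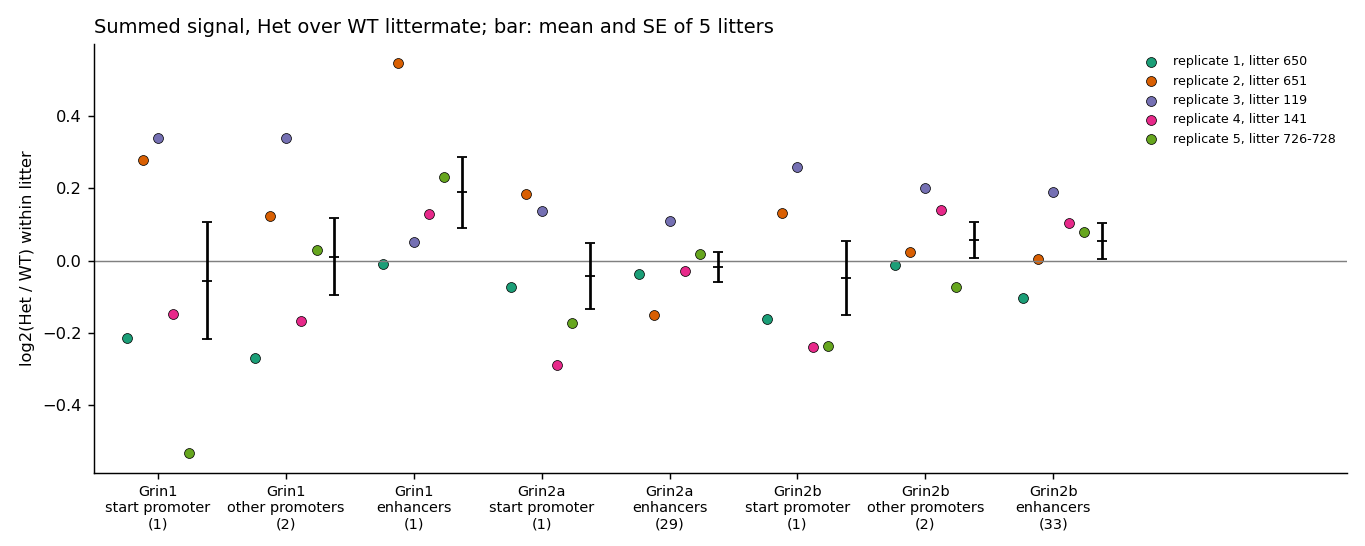
log2 ratio of Het over its WT littermate (y axis) for the summed signal of start promoters, other promoters and enhancers of each gene (x axis, number of regions in brackets). Colours are litters, and bars are the mean and SE of 5 litters. The ratio of the Grin1 start promoter runs from -0.53 to 0.34 and that of the summed Grin2a enhancers from -0.15 to 0.11.

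For the long genes Grin2a and Grin2b, the SD of the litter means of the sum was larger than the mean difference between littermates. The SD of the 5 litter means of the Grin2b sum was 0.18 on the log2 scale, while littermates differed by 0.08 on average in size. For Grin2a the values were 0.15 and 0.07. For Grin1 they were 0.15 and 0.21. The measures are unlike, an SD of litter means and a difference between single animals, so for Grin1 they give no order. Litters also differ in sex, so the spread over litters includes any sex difference. The litter of replicate 2 had the highest mean in 34 of the 70 regions, against 17.8% of all regions, and that of replicate 5 the lowest in 32 of 70, against 20.4%. The litter of replicate 2 was the lowest in 0 of 70. Replicate 5 also holds the shallowest library, WT replicate 5, and its Het animal had 6262904 reads and was low as well. The cause of the low values was not tested.

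The second comparison set the 6 males against the 4 females, and 0 of 70 regions passed limma's adjusted threshold of 0.05, where 0.904% of all regions did. The estimate was lower in males for 56 of the 70 regions, beside 22757 of all 50898 and 3386 of the 5000 strongest. The sexes came from different litters, 3 male and 2 female, so sex and litter cannot be told apart. The main fit counted littermates as separate animals, so its errors and p-values for sex do not measure the spread over litters. At an unadjusted p under 0.05 there were 14 of 70 regions (20%), all lower in males, where 4.25% of all regions were lower and 13.2% differed in either direction. By gene these were 0 of 4 in Grin1, 6 of 30 in Grin2a and 8 of 36 in Grin2b. The median log2 difference, male minus female, was -0.16 over the 70 regions, 0.03 over all regions and -0.07 over the 5000 strongest. Taking the litter as a random effect left 9 of 70 below 0.05, beside 9.31% of all regions in either direction and 2.81% lower in males.

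The smallest adjusted p-values belonged to the pair of broad Grin2b enhancers. At chr6:135729234-135798968 males averaged 1601 ± 180 (SD, n = 6) and females 2022 ± 160 (SD, n = 4). The lowest female, WT replicate 2, read 1825 and the highest male, Het replicate 3, 1871, so the ranges overlapped at 1 animal of each sex. The log2 difference, male minus female, was -0.34 with a standard error of 0.09 (limma, adjusted p = 0.05165). At chr6:135837564-135872205 males averaged 1176 ± 258 (SD, n = 6) and females 1553 ± 109 (SD, n = 4) (log2 difference -0.43, standard error 0.11; limma, adjusted p = 0.05302). Here the highest male, Het replicate 3 at 1636, lay above 3 of the 4 females. Over the settings with all 10 libraries, the adjusted p (limma or limma-voom) ran from 0.034 to 0.16 at the wider enhancer. At the other it ran from 0.027 to 0.14. On leaving out 1 library the limma values ran from 0.0023 to 0.32 and from 0.00017 to 0.26.

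**Figure D5:**
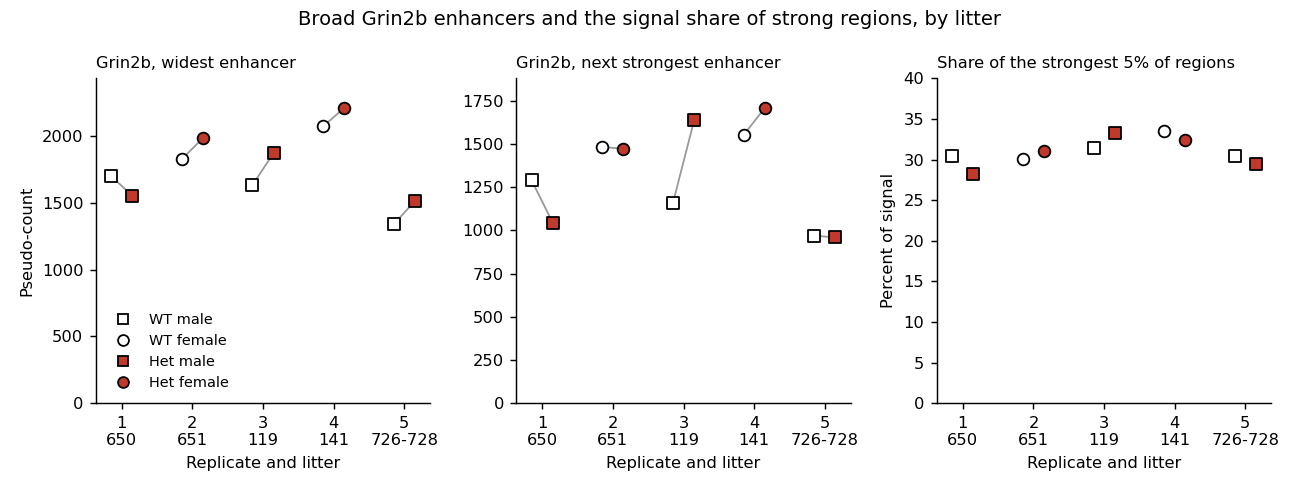
Pseudo-counts (y axis, left and middle panels) of the broad Grin2b enhancers chr6:135729234-135798968 and chr6:135837564-135872205 by replicate and litter (x axis), and the percent of signal in the strongest 5% of regions (right panel). White is WT, red is Het, squares are males, circles are females, and lines join littermates. By litter mean, replicate 4 is highest and replicate 5 lowest at both enhancers.

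Next by adjusted p came a broad Grin2a enhancer of 18.9 kb, chr16:9724601-9743507, named after its values were seen. Males averaged 365 ± 56.1 (SD, n = 6) and females 471 ± 27.5 (SD, n = 4), and the lowest female at 447 lay just above the highest male at 445 (log2 difference -0.38; limma, adjusted p = 0.06288). The Grin2a start promoter had 550 ± 94.5 in males (SD, n = 6) and 710 ± 117 in females (SD, n = 4) (log2 difference -0.37; limma, adjusted p = 0.1004). The Grin2b start promoter had 667 ± 120 and 813 ± 86.0 (-0.30; limma, adjusted p = 0.185). The Grin1 start promoter had 223 ± 50.4 and 264 ± 47.0 (-0.25; limma, adjusted p = 0.4427). Every female lay above every male in 4 of the 70 regions, 2 in Grin2a and 2 in Grin2b, beside 0.866% of all regions. In 0 of 70 did every female lie below, beside 2.28%. The summed signal of Grin2b separated the sexes by a small gap. It averaged 6664 ± 686 in males (SD, n = 6) and 8020 ± 228 in females (SD, n = 4). The highest male, Het replicate 3, read 7677 and the lowest female, WT replicate 2, read 7837. These animals came from 3 male and 2 female litters. The log2 difference, female minus male, was 0.27. On leaving out both animals of a litter it ran from 0.19 (replicate 5) to 0.33 (replicate 3). The sums of Grin1 and Grin2a overlapped between the sexes.

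The count of adjusted calls for sex moved with single libraries and settings. Without Het replicate 3, the male with the highest value at the broad Grin2b enhancers, it was 9 of 70, beside 7.03% of all regions. It was 2 without WT replicate 2 (1.92% of all regions), 1 without WT replicate 1 (0.774%) and 0 without any other single library. Het replicate 3 also had the highest share among males for the strongest 5% of regions, 33.2%, beside 31.5% in its WT littermate. The females of replicate 4 had 33.6% and 32.4% and those of replicate 2 had 30.1% and 31.0%. After an abundance-dependent loess there were 2 of 70 adjusted calls, beside 1.66% of all regions; the part of the share itself was not tested. Leaving out both animals of the male litter of replicate 3 gave 12 of 70 adjusted calls (17.1%), beside 7.83% of all regions. Leaving out the litters of replicates 1, 2, 4 or 5 gave 0 each, beside 0.11%, 0.866%, 0.00589% and 0.057% of all regions.

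The genotype difference was then tested for a difference between males and females. With limma's interaction term 0 of 70 regions passed an adjusted p of 0.05, as did 0 of all 50898, and 0 of 70 had an unadjusted p under 0.05, beside 1.36% of all regions. With the litter block 1 of 70 had an unadjusted p under 0.05, beside 3.59%. The interaction has wide errors here, with a median standard error of 0.30 on the log2 scale over the 70 regions, against 0.14 for the genotype difference.

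Likeness of the 3 start promoters across the 10 libraries was measured as the root mean square difference of centred log2 values over 10 samples, where 0 is an identical pattern. The value was 0.09 between Grin2a and Grin2b, 0.12 between Grin1 and Grin2a and 0.13 between Grin1 and Grin2b. The median distance from other promoter regions was 0.32 for Grin2a, 0.29 for Grin2b and 0.33 for Grin1. Of 16522 promoter regions outside the windows, 0.327% lay closer to Grin2a than Grin2b did, and 1.11% lay closer to Grin2b than Grin2a did. Grin1 was less near: 2.00% lay closer to Grin2a and 4.90% closer to Grin2b than Grin1 did. From Grin1, 1.07% lay closer than Grin2a and 1.35% closer than Grin2b. The nearest promoter region was chr14:55494004-55496924 for Grin1 at 0.07, chr11:92957749-92965358 for Grin2a at 0.06 and chr11:58760631-58774422 for Grin2b at 0.04. The points share libraries, depth, litters and the library-wide share of signal in strong regions, and no test is given. That share was highest in WT replicate 4, as were the 3 start promoters, and lowest in Het replicate 1, not Het replicate 5. Its part in the likeness was not tested.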

How the data were processed

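H3K27ac ChIP-seq of cortex from 10 mice was analysed, 5 Het and 5 WT by genotype label. Bowtie2, edgeR and build mm9 are named in the submitters' processing notes, without versions. What the calling and classing of regions rests on was not given in the sources used here. Each deposited value is a region's signal, a pseudo-count per the file headers. The authors also deposited log2 fold changes, log2 CPM, p-values and an FDR per region. Such an adjustment draws shallow libraries towards the mean of their genotype and hides a uniform change. Whole reads were recovered by inverting it with a dispersion of 0.0151; 100% of values came within 0.1 read of a whole number, and 9 values deposited as 0 were set to 0 reads. These reads served for depth and a limma-voom alternative.

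limma 3.58.1 (R 4.3.3; trend, robust) was fitted to log2(value + 1) over all 50898 regions with sex and genotype as terms, and p-values were adjusted by Benjamini-Hochberg. The scale understates changes of weak regions. Recovery and fits were tested on simulated data. Members and lists were chosen with earlier results of these data known. Regions named with their values were every promoter-class region, the 3 strongest enhancers of each window and the 3 smallest p-values in each direction of the genotype comparison. Littermates share a replicate number, taken from animal numbers and the stated pairs. Their deviations from group means correlated at 0.23, 0.12, 0.080, 0.36 and 0.42 for replicates 1 to 5. The best-correlated WT library was the littermate for Het replicates 1, 4 and 5, but WT replicate 4 for Het replicates 2 and 3. The replicate block was an alternative, beside pseudocounts of 0.5 and 5, other scalings, a filter at a mean of 20, no sex term, a threshold of 0.10 and leaving out libraries. limma-voom, litter as a random effect and leaving out pairs were added after seeing the data. Gene positions come from RefSeq for GRCm38, which matched all 3 genes; no coordinate was converted, and lists of other synaptic genes were not analysed here.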

Additional observations from a re-analysis of the deposited data

Results flagged for a closer look

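Of 112 groups of values tested for 1 library far from the others by Dixon's criterion, 6 stood out; chance alone flags about 1 in 20. At Grin1 chr2:25141216-25150323, Het replicate 1 was lowest among the Het libraries at 205, with the others between 265 and 272. At Grin2a chr16:9669386-9697638, WT replicate 2 was highest among females at 730.1, with the others between 624 and 626. At Grin2b chr6:135799663-135829001, Het replicate 4 was highest among females at 1045, with the others between 921 and 928. The sum of that region with the remaining promoter-class region of Grin2b was 1388 in the same animal, with the other females between 1260 and 1282. At Grin2b chr6:136099575-136101200, Het replicate 1 was highest among males at 46.2, with the others between 24.8 and 31.8. The summed signal of all Grin1 regions was highest among WT libraries in WT replicate 4 at 729.5, with the others between 548 and 590. The cause was not tested in any of these.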

How the results depend on the processing

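Among the 70 regions, 0 passed the adjusted threshold for genotype under each setting run, including the replicate block, which changed no call there. The percents here are shares of all regions under the same setting. The unadjusted genotype count of 2 (2.1%) became 6 with the replicate block (4.63%), 5 with litter as a random effect (4.24%), 1 without the sex term (1.77%), 1 with limma-voom (2.21%) and 0 without both animals of replicate 4 (1.48%). On leaving out single libraries it was 0 to 4, with 0 without WT replicate 3 (1.67%) and 4 without Het replicate 2 (1.76%) or Het replicate 5 (2.2%). For sex, the adjusted count of 0 (0.904%) became 1 with a pseudocount of 5 (1%), 2 with abundance-dependent loess (1.66%), 2 with limma-voom (1.13%), 3 at a threshold of 0.10 (2.25%) and 12 without both animals of replicate 3 (7.83%). It was 0 to 9 on leaving out single libraries. The unadjusted sex count of 14 (13.2%) became 9 with litter as a random effect (9.31%), 23 without both animals of replicate 1 (11.4%), 8 without both of replicate 2 (15.8%), 21 without both of replicate 3 (22.7%) and 8 without both of replicate 5 (7.74%). On leaving out single libraries it was 10, as without WT replicate 2 (16.4%), to 19, without Het replicate 3 (21.2%). The unadjusted count for genotype by sex went from 0 (1.36%) to 1 with the replicate block (3.59%). The cause was not tested. The genotype and sex differences of the 3 gene sums moved by less than the pooled SD over animals under each setting run. That SD is a wide measure. The log2 female minus male value of Grin1, 0.17, ran from 0.055 without both animals of replicate 4 to 0.29 without both of replicate 2. Scaling moved the median of all regions by less than 0.1 on the log2 scale. Regions with few reads, as low as 4 in a library, have wide intervals, and 54 of 70 were bounded within 1.5-fold.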
